A study of Homo sapiens with 4 samples.

Results

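The target genes of the Wnt pathway were followed after knockdown of TET1 in HCT116, a long-established line of human colorectal cancer cells. The 10 genes were AXIN2, LGR5, ASCL2, RNF43, ZNRF3, TCF7, MYC, ETS2, SOX4 and CD44. Every probe set that the platform annotation tied to 1 of these symbols alone was taken, which gave 33 of the 54675 probe sets on the array and 9 of the 10 genes. TCF7 was the single annotated symbol of none of the probe sets, so no value is given for it. RNA was measured on 4 Affymetrix GeneChip arrays, 2 from cells given a control siRNA and 2 from cells given a TET1 siRNA. All cells were of the same line and received the same lipid transfection reagent in serum-containing medium. The labels name 1 TET1 siRNA group and give neither its sequence nor the time after transfection, so effects of TET1 loss and of that siRNA cannot be told apart. The replicates are described as biological duplicates.

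In the canonical Wnt pathway a destruction complex built on the scaffolds APC and AXIN1 marks beta-catenin, the product of CTNNB1, for degradation, and a Wnt ligand at the cell surface stops it. Beta-catenin then enters the nucleus and binds TCF/LEF proteins at target genes, many of which encode inhibitors that feed back on the pathway. HCT116 cells carry a CTNNB1 mutation that protects beta-catenin from the destruction complex, so the pathway is active in them without a ligand. In the intestine these targets are characteristic of the crypt base, where stem cells reside. TET1 is a dioxygenase that oxidises methylated cytosine, which lies mostly in CpG dinucleotides.

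Because TET1 acts on CpG cytosines, the upstream sequence is shown for the members with a RefSeq window taken (assembly GRCh38.p14) directly before the annotated gene start. These are 3 genes that fell in the gene-level test (ETS2, RNF43 and CD44) and 1 that did not pass (SOX4). The RefSeq promoter table held windows for 5 of the 10 members, the other being TCF7. Each run is the 250 bases before the start, 5′ to 3′ on the gene's strand, with CpG dinucleotides in capitals. ETS2 is at chr21:38804933-38805182 (plus strand), RNF43 at chr17:58417535-58417784 (minus strand), CD44 at chr11:35138921-35139170 (plus strand) and SOX4 at chr6:21593501-21593750 (plus strand).
ETS2: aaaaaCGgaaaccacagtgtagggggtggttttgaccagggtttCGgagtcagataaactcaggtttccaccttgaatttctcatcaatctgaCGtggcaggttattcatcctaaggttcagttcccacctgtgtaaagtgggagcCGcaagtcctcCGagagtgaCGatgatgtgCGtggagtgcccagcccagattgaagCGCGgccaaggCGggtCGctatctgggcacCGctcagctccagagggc
RNF43: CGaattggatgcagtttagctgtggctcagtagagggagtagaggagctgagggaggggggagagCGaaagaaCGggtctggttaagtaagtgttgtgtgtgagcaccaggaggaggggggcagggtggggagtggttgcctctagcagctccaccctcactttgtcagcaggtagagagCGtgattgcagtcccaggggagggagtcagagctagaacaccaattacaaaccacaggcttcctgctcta
CD44: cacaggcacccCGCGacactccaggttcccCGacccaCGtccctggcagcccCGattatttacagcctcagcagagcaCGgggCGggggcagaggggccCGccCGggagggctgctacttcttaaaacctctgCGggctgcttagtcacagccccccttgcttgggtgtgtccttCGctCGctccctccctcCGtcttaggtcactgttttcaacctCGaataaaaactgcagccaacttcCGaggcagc
SOX4: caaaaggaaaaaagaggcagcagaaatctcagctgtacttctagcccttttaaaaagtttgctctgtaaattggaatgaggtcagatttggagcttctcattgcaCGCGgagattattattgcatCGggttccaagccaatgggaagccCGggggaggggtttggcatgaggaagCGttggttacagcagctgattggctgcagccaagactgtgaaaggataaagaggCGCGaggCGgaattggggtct
The ETS2 run holds 12 CpG, the RNF43 run 4, the CD44 run 15 and the SOX4 run 8, against a median of 11 (quartiles 3 and 23) over all 35116 RefSeq windows of the same length. All 4 counts lie within those quartiles. The TCF/LEF core motif was searched on both strands in its forms CTTTGAT (found in 2.26% of all windows), CTTTGAA (in 3.8%), CTTTGTA (in 2.35%) and CTTTGTT (in 4.5%). None of these forms occurred in the 4 runs. At least 1 of them occurred in 12% of all windows and in 1 of the 8 windows taken for the members, an internal TCF7 start. The arrays did not measure DNA methylation or factor binding.

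**Figure D1:**
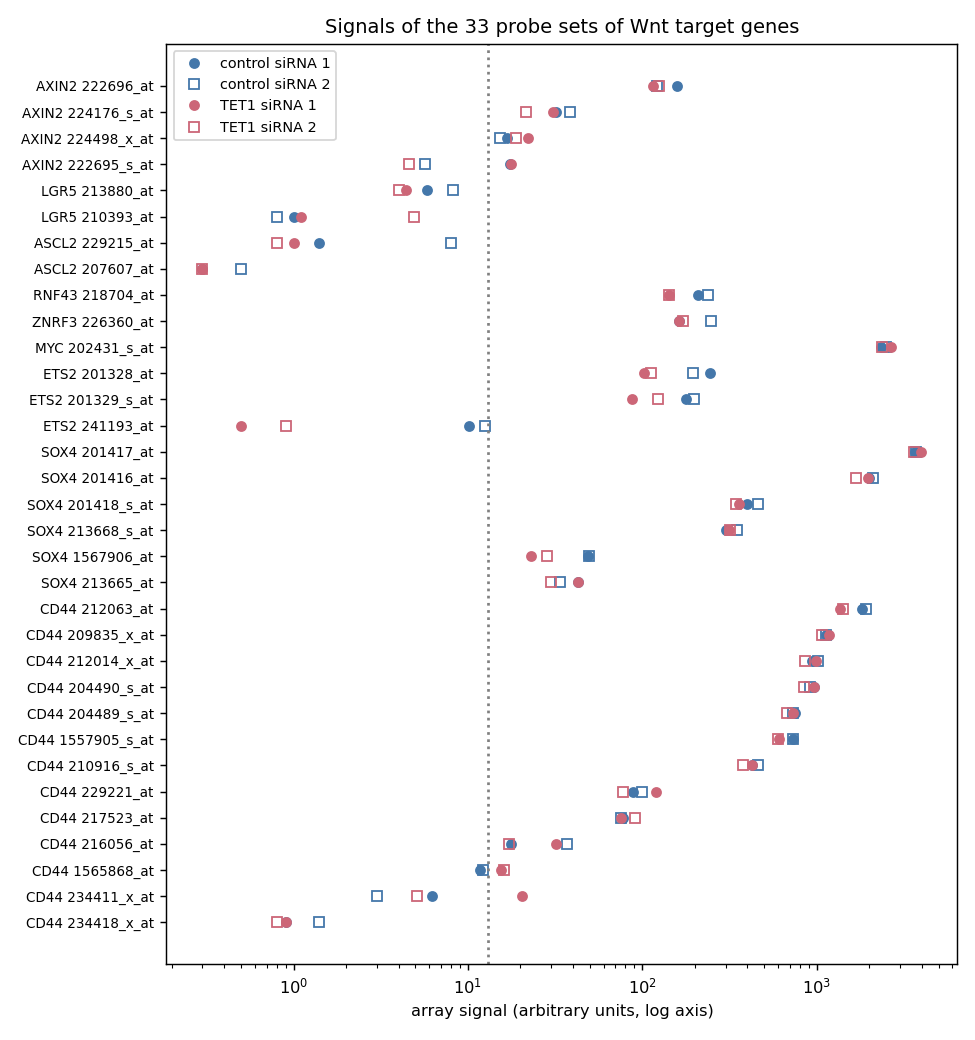
Signal of each of the 33 member probe sets on the 4 arrays, in arbitrary units on a log axis (blue, control siRNA; red, TET1 siRNA; circles, replicate 1; squares, replicate 2). The dotted line marks the signal of 13.1 that a probe set had to exceed on average to be tested; both LGR5 and both ASCL2 probe sets lie left of it, and both ETS2 probe sets right of it have their red symbols below their blue ones.

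The TET1 transcript itself read 58.1 and 59.6 under control siRNA and 14.6 and 15 under TET1 siRNA by its brighter probe set. The groups did not overlap, and 25.1% of the control signal was left (log2 difference -1.28, SE 0.20, limma adjusted p = 9.28e-04). A dimmer TET1 probe set read 18.2 and 35.5 against 6 and 8.9 (adjusted p = 0.0509). Array medians ran from 13.9 to 15.5. The 10 epithelial markers summed to 17510 and 18150 under control siRNA against 19490 and 19550, higher on both TET1 siRNA arrays. Of the 7 of them tested 6 had a positive log2 difference, of which KRT8 alone passed (0.32, adjusted p = 0.00861; 0.114 without TET1 siRNA replicate 2), and the colonic identity genes CDX1, CDX2 and CDH17 stayed at 17.7 or below on every array. Of the markers of other cell types, 4 of 6 fibroblast, 4 of 5 endothelial and 4 of 5 leukocyte genes lay below the median probe set. The summed fibroblast markers were 353.6 and 312.4 on the control arrays against 386 and 491.6, mostly from COL1A1, whose log2 difference was 0.47 (adjusted p = 0.0235; 0.138 without control siRNA replicate 2 and 0.218 without TET1 siRNA replicate 2) and whose other probe sets did not pass. The endothelial markers summed to 30.1 and 47.9 against 36.6 and 24.3, and the leukocyte markers to 30.3 and 55.8 against 50.3 and 43.6, with CDH5 at 6.7 or below and PTPRC at 10.6 or below on every array. CDH1, the only tested epithelial marker with a negative log2 difference and the cadherin whose tail binds beta-catenin at cell junctions, fell from 925.1 and 1059 to 474.8 and 394 (log2 difference -1.16, adjusted p = 2.51e-05), and so did its second probe set. The ratio of 3′ to 5′ signals of beta-actin, a sign of RNA integrity, was 1.19 and 1.21 against 1.26 and 1.28, and that of GAPDH overlapped (0.846 and 0.858 against 0.858 and 0.884). The part of these markers and ratios in the results was not tested, and in bulk RNA fewer cells with a transcript and less of it per cell cannot be told apart.

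Among the tested members, every change that passed was a fall. At the level of genes, each read from its probe set of highest mean log2 signal, 7 members lay above the filter on dim probe sets. Of these, 3 fell after TET1 siRNA (ETS2, RNF43 and CD44) and none rose, while AXIN2, ZNRF3, SOX4 and MYC did not pass. Of all 12389 genes tested, 10.6% fell and 11.2% rose at adjusted p below 0.05, and 21.8% did either. The groups did not overlap in 3 of the 7 members, the same 3 that fell; over all genes they did not overlap in 59.0%, with TET1 siRNA lower in 28.1%. With 7 genes, 1 call more or less moves the share of members widely. The members' median log2 difference was -0.24, against 0.01 over all genes tested. Log2 differences here are of log2(signal + 16), which understates changes of dim probe sets.

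Of the 33 probe sets 25 were tested, and 6 of them fell and none rose: 2 of ETS2, 2 of CD44, 1 of RNF43 and 1 of SOX4. That is 24% of those tested, against 8.31% lower, 7.76% higher and 16.1% in either direction over all 27306 probe sets. Probe sets of a gene read transcripts of the same gene and are not independent. The groups did not overlap in 11 of the 25 (background 56.1%), and in 9 of those the TET1 siRNA arrays were the lower ones (background 28.9%). With 2 arrays a group, the calls depend on limma borrowing variance across features: with no moderation none of the member genes passed, although 3 of 7 had an unadjusted p below 0.05 (21.6% of all genes did), and the smallest p of an exact permutation test is 0.33. Leaving out 1 array gave 2 to 5 member probe sets lower, with 2 when control siRNA replicate 2 was left out.

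**Figure D2:**
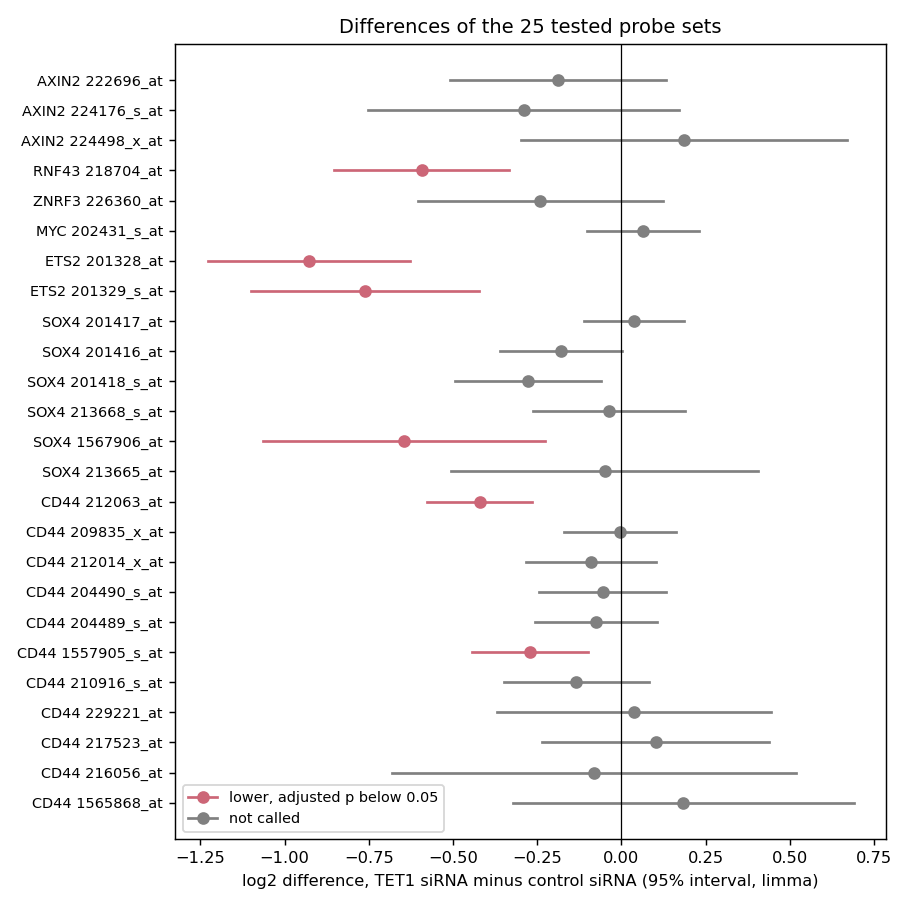
Log2 difference (TET1 siRNA minus control siRNA) of the 25 tested member probe sets with its 95% interval from limma; red marks the 6 that fell at adjusted p below 0.05. The RNF43 probe set and both ETS2 probe sets lie between -0.93 and -0.59. Most CD44 probe sets lie near 0, and the SOX4 probe sets are spread from -0.65 to 0.04.

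Feedback inhibitors of the pathway came first by role. RNF43 encodes a membrane ubiquitin ligase that removes Frizzled receptors from the cell surface. Its only probe set read 208.4 and 238.1 under control siRNA and 143.1 and 141.4 under TET1 siRNA. Both TET1 siRNA arrays were below both controls, at 63.7% of the control mean. The gene-level log2 difference was -0.59 (SE 0.12, 95% interval -0.85 to -0.34, limma adjusted p = 0.00398). RNF43 passed with each array left out in turn (adjusted p 0.00798 to 0.0376).

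ZNRF3, the paralogue of RNF43 with the same activity, read 162.1 and 247.4 under control siRNA and 162.9 and 171.9 under TET1 siRNA. The control replicates lay further apart than the group means, and the groups overlapped. The log2 difference was -0.24 (95% interval -0.60 to 0.12, limma adjusted p = 0.339). It turned on which control was kept: -0.52 (adjusted p = 0.024) without control siRNA replicate 1 and 0.04 (adjusted p = 0.888) without control siRNA replicate 2. Whether RNF43 and ZNRF3 differed in response was not tested.

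AXIN2, a scaffold of the destruction complex and a widely used readout of the pathway, did not pass in any of its 3 tested probe sets. The brightest read 157.6 and 121.6 under control siRNA and 114.6 and 124.7 under TET1 siRNA, so the groups overlapped (log2 difference -0.19, 95% interval -0.51 to 0.13, adjusted p = 0.406). A dimmer one read 32.1 and 38.6 against 30.7 and 21.6 (log2 difference -0.29, 95% interval -0.75 to 0.17). The dimmest one tested had the opposite sign, with 16.8 and 15.3 against 22.1 and 18.9 (log2 difference 0.19, 95% interval -0.30 to 0.67). The first interval reaches a difference as negative as that of CD44. In the dimmer 2 the groups did not overlap, and they lay apart in opposite directions. The untested AXIN2 probe set read 17.5 and 5.7 under control siRNA and 17.6 and 4.6 under TET1 siRNA.

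LGR5, an R-spondin receptor that marks crypt stem cells, was dim on every array. Its probe sets read 5.8 and 8.2 against 4.4 and 4, and 1 and 0.8 against 1.1 and 4.9 (control siRNA first). Both lay below the filter and were not tested, and they differed in the order of the groups. Its relative LGR4 was measurable, at 101.1 and 90 under control siRNA and 92.3 and 105.4 under TET1 siRNA, and did not pass (log2 difference 0.04, adjusted p = 0.882).

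Among the transcription factors, ETS2 alone fell at the level of genes. ETS2 belongs to the ETS family, whose members act downstream of growth factor signalling as well. Its brightest probe set read 244.1 and 195.4 under control siRNA and 102 and 112.6 under TET1 siRNA. The groups were well apart, with 48.8% of the control mean left (gene-level log2 difference -0.93, SE 0.14, 95% interval -1.22 to -0.63, limma adjusted p = 5.98e-04). A second ETS2 probe set read 178 and 197.7 against 87.7 and 123 and also fell (log2 difference -0.76, SE 0.15, adjusted p = 0.00684 in the fit of all probe sets; 0.0502 without control siRNA replicate 2). The third, below the filter, read 10.1 and 12.5 against 0.5 and 0.9. All 3 ETS2 probe sets thus had both TET1 siRNA arrays below both controls.

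SOX4 is an HMG-box factor of progenitor cells. Its brightest probe set read 3648 and 3728 under control siRNA and 3986 and 3590 under TET1 siRNA, with overlapping groups and a narrow interval around 0 (log2 difference 0.04, 95% interval -0.11 to 0.18, adjusted p = 0.763). The next read 1998 and 2107 against 1955 and 1675 (log2 difference -0.18, 95% interval -0.36 to 0.00, adjusted p = 0.171). The one after read 399.8 and 459.2 against 357.5 and 343.9 (log2 difference -0.28, adjusted p = 0.0832). Of the 6 SOX4 probe sets 5 had a negative log2 difference, but 1 alone fell, a dim one (1567906_at). It read 48.5 and 49.7 under control siRNA and 23 and 28.4 under TET1 siRNA (log2 difference -0.65, SE 0.19, adjusted p = 0.0411). It did not pass when any 1 array was left out (adjusted p 0.0734 to 0.176), nor after quantile normalization (0.0522). The 2 others read 302.8 and 349.7 against 314.7 and 318.8, and 42.7 and 33.5 against 43 and 30.

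MYC, the proto-oncogene through which Wnt signalling drives crypt cell growth, did not pass. It read 2322 and 2499 under control siRNA and 2670 and 2374 under TET1 siRNA, so 1 TET1 siRNA array lay above both controls and 1 between them. The log2 difference was 0.06 (95% interval -0.10 to 0.23, adjusted p = 0.615), an interval that does not reach the differences of RNF43 or ETS2. ASCL2, a bHLH factor of crypt stem cells, was near the bottom of the signal range. Its probe sets read 1.4 and 8 against 1 and 0.8, and 0.3 and 0.5 against 0.3 and 0.3, and neither was tested.

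CD44, a receptor for hyaluronan and a cell-surface marker of crypt and tumour stem cells, had 13 probe sets, of which 11 were tested and 2 fell. The brightest (212063_at) read 1806 and 1926 under control siRNA and 1356 and 1422 under TET1 siRNA. Both TET1 siRNA arrays were lower, at 74.4% of the control mean (gene-level log2 difference -0.42, SE 0.070, 95% interval -0.57 to -0.27, limma adjusted p = 0.00136). Probe set 1557905_s_at read 731.3 and 731.6 against 607.3 and 598.9 (log2 difference -0.27, adjusted p = 0.0374), and it did not pass with any 1 array left out (adjusted p 0.103 to 0.149) or after median centring (0.0882).

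Other bright CD44 probe sets stood apart from these. Probe set 209835_x_at read 1132 and 1123 under control siRNA and 1178 and 1073 under TET1 siRNA (log2 difference -0.00, 95% interval -0.17 to 0.16), an interval that does not meet that of 212063_at. Probe set 212014_x_at read 943 and 1010 against 985.1 and 852.2, 204490_s_at read 961.4 and 912.1 against 964.4 and 840.8, and 204489_s_at read 749.3 and 732.4 against 734.3 and 670.9. In all 4 the groups overlapped, and their log2 differences ran from -0.09 to -0.00. The difference between probe sets was not tested, and the annotation used here does not say which CD44 transcripts each one reads. With the mean of all CD44 probe sets, those below the filter included, the gene was at -0.03 (limma adjusted p = 0.873). Its call thus rests on the choice of probe set. The call also ended without the variance trend (adjusted p = 0.0688).

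The remaining CD44 probe sets were dimmer. Probe set 210916_s_at read 425.1 and 461.2 against 427.6 and 377.8 (log2 difference -0.13), and 229221_at read 88 and 100.1 against 120.4 and 77.1 (log2 difference 0.04). Probe set 217523_at had a log2 difference of 0.10, 216056_at of -0.08 and 1565868_at of 0.18, none of which passed. The 2 untested CD44 probe sets read 6.2 and 3 against 20.3 and 5.1, and 0.9 and 1.4 against 0.9 and 0.8. Probe set 1565868_at was the tested member probe set nearest the filter, with a mean signal of 13.85, and the nearest one outside it was the dim AXIN2 probe set at 11.35.

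**Figure D3:**
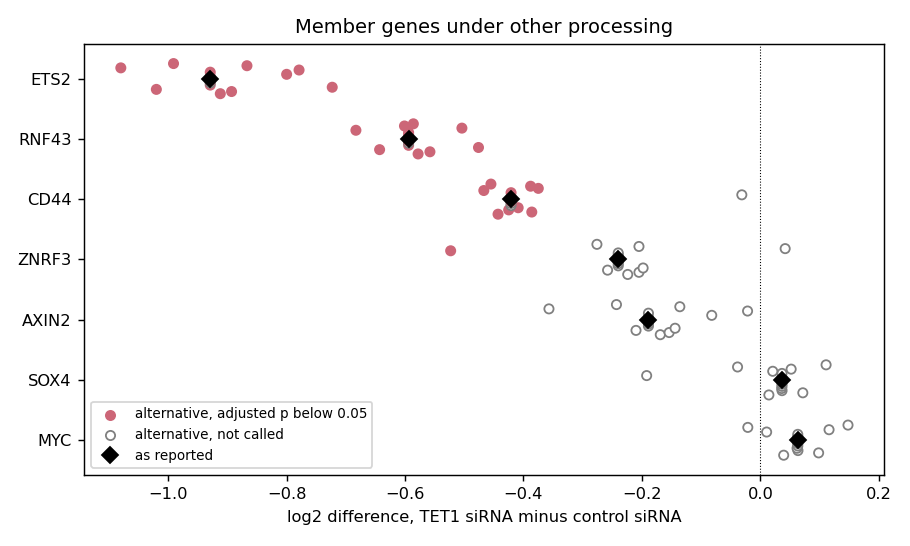
Log2 difference of the 7 tested member genes as reported (black diamonds) and under the alternative settings (red, adjusted p below 0.05; open, not called). ETS2 and RNF43 stay below -0.47 in every setting, and CD44 has 1 setting near 0 (the mean of all its probe sets). ZNRF3, MYC and SOX4 lie on both sides of 0.

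Upstream of the targets lie the genes of ligands and receptors. Of 25 genes for Wnt ligands, R-spondins and Wnt secretion 7 were tested, and 2 fell and none rose (median log2 difference -0.04). The share that fell was 28.6%, against 10.6% lower and 11.2% higher over all genes, but 1 call moves it widely. WLS, the carrier that takes Wnt proteins to the cell surface, read 933.2 and 977.1 under control siRNA and 630.1 and 649.1 under TET1 siRNA (log2 difference -0.57, adjusted p = 3.57e-04); its other 2 probe sets did not pass, and without _s_at probe sets the gene was at -0.12 (adjusted p = 0.453). WNT16 fell by 0.29 on the log2 scale (adjusted p = 0.0200), but its second probe set did not pass (0.07), and it did not pass without control siRNA replicate 1, TET1 siRNA replicate 1 or TET1 siRNA replicate 2 (adjusted p 0.104, 0.0551 and 0.124), each of which leaves 1 gene of the list lower. Of 15 tested receptors and coreceptors 1 rose (6.67%, against 11.2% over all genes) and none fell (against 10.6% over all genes), with a median of 0.04. With 1 array left out, 0 (without TET1 siRNA replicate 1) to 3 (without TET1 siRNA replicate 2) were higher, and 2 without control siRNA replicate 2. It was ROR1, a receptor of non-canonical Wnt signalling, at 36 and 35.8 against 73.9 and 72.4 (log2 difference 0.78, adjusted p = 0.0072; 0.0529 without TET1 siRNA replicate 1). The other tested ROR1 probe set read 29.3 and 59.8 against 51 and 45.7 and did not pass (0.13). With all ROR1 probe sets averaged, the untested one included, the gene was at 0.24 (limma adjusted p = 0.428). The coreceptor genes LRP5 (-0.08) and LRP6 (0.13) did not pass, although a dim LRP6 probe set rose by itself (48.2 and 36.4 against 69.6 and 97.9, adjusted p = 0.0208; 0.111 without control siRNA replicate 2 and 0.164 without TET1 siRNA replicate 2).

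In the destruction complex and Dishevelled group 3 of 21 tested genes rose and 2 fell (median 0.01). These shares, 14.3% and 9.52%, lie near the 11.2% and 10.6% over all genes. With 1 array left out, 1 (without TET1 siRNA replicate 2) to 3 were higher and 2 without control siRNA replicate 2, while 1 to 2 were lower, with 1 in each case but that of TET1 siRNA replicate 2. The ubiquitin ligase adaptor BTRC read 140.2 and 134.8 under control siRNA and 199.8 and 217.4 under TET1 siRNA (log2 difference 0.55, adjusted p = 0.00597; 0.0584 without TET1 siRNA replicate 2), and a second BTRC probe set rose too. With all 5 BTRC probe sets averaged, those below the filter included, the gene was at 0.26 (limma adjusted p = 0.198). Its paralogue FBXW11 rose by 0.42 (adjusted p = 0.00367), but a second FBXW11 probe set did not pass (0.34, limma adjusted p = 0.0573). APC read 156.8 and 132.8 against 186.3 and 242.1 (log2 difference 0.51, adjusted p = 0.0235), and another of its 5 probe sets rose (54.4 and 36.2 against 84 and 76.7). APC did not pass without control siRNA replicate 2 (0.40, adjusted p = 0.135) or TET1 siRNA replicate 2 (0.34, adjusted p = 0.214). When _x_at and _s_at probe sets, which can read related sequences, were left out, APC was read from a dim probe set and was at -0.24 (adjusted p = 0.63).

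The kinase gene CSNK1E fell by 0.68 on the log2 scale (adjusted p = 0.00589), but its other tested probe set was at 0.11 and did not pass, and with all CSNK1E probe sets averaged the gene was at -0.29 (adjusted p = 0.152). DVL3, a Dishevelled protein that relays the signal from Frizzled, fell by 0.58 (adjusted p = 0.0197), with adjusted p 0.0721, 0.0658 and 0.119 without control siRNA replicate 1, control siRNA replicate 2 and TET1 siRNA replicate 1. The scaffold gene AXIN1 (0.21, adjusted p = 0.536) and the kinase gene GSK3B (0.02, adjusted p = 0.918) did not pass. CTNNB1 itself read 3990 and 3757 under control siRNA and 4360 and 3586 under TET1 siRNA by its brightest probe set (log2 difference 0.03, 95% interval -0.16 to 0.22, adjusted p = 0.85). A second CTNNB1 probe set (1554411_at) fell by itself, with 759.9 and 619.4 against 436.1 and 528 (log2 difference -0.50, adjusted p = 0.0143). It did not pass without control siRNA replicate 1 (-0.36, adjusted p = 0.0986) or TET1 siRNA replicate 1 (-0.37, adjusted p = 0.0911).

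In the nuclear beta-catenin complex 5 of 24 tested genes fell and none rose, and 19 of the 24 had a negative log2 difference (48.8% of all genes tested did). The median was -0.15, and the share that fell was 20.8%, against 10.6% over all genes. The list holds coactivators and corepressors alike, so its shares do not give a direction for the activity of the complex. Some of the calls rest on the choice of probe set, as given below. With 1 array left out 2 to 4 were lower (2 without control siRNA replicate 2, 3 without TET1 siRNA replicate 1) and 0 to 1 higher (1 without control siRNA replicate 1 or TET1 siRNA replicate 1). TCF7L2 is the main TCF factor of the intestinal epithelium. It read 4855 and 4754 under control siRNA and 3519 and 3501 under TET1 siRNA, with both groups tight and apart (log2 difference -0.45, SE 0.059, limma adjusted p = 2.83e-04). Of its 7 probe sets 6 fell, by 0.45 to 0.87 on the log2 scale, and the seventh was dim (8.8 and 18.3 against 15.7 and 11.7). The gene-level call ended without limma's variance trend (adjusted p = 0.054).

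The coactivator gene BCL9 read 73.3 and 60.5 against 36.1 and 22.7 (log2 difference -0.88, adjusted p = 0.0101; 0.0705 without control siRNA replicate 1 and 0.0814 without TET1 siRNA replicate 2). The corepressor gene TLE2 fell by 0.61 (adjusted p = 0.00756; 0.0538 without control siRNA replicate 2 and 0.0532 without TET1 siRNA replicate 1). TBL1X fell by 0.43 (adjusted p = 0.0297), and did not pass without control siRNA replicate 2, TET1 siRNA replicate 1 or TET1 siRNA replicate 2 (adjusted p 0.183, 0.118 and 0.0922). The fifth was the chromatin remodeller SMARCA4, chosen for naming with its value known (-0.39, adjusted p = 0.0094; 0.067 without control siRNA replicate 2). With all probe sets of a gene averaged, TLE2 (-0.44, limma adjusted p = 0.0661), TBL1X (-0.43, 0.0706) and SMARCA4 (-0.32, 0.0844) did not pass. Of the tested probe sets taken singly, 1 of 2 fell for TLE2, 2 of 5 for TBL1X and 4 of 7 for SMARCA4. LEF1, another TCF/LEF factor, was at 8 or below on every array and was not tested. TCF7L1, likewise chosen afterwards, did not pass (-0.16, adjusted p = 0.457).

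**Figure D4:**
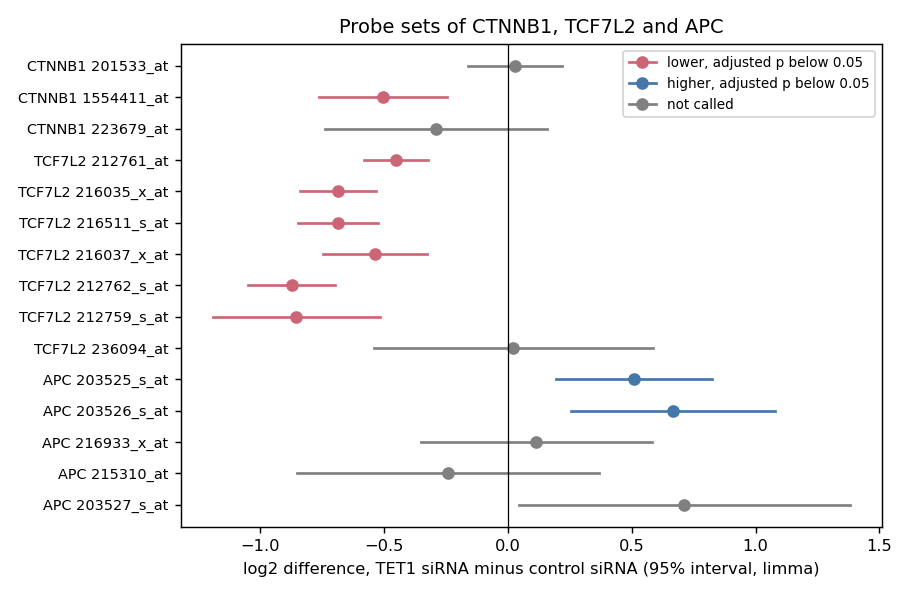
Log2 difference of each tested probe set of CTNNB1, TCF7L2 and APC with its 95% interval from limma (red, lower; blue, higher; grey, not called). The 6 bright TCF7L2 probe sets are all lower, while the brightest CTNNB1 probe set is at 0.03.

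Wnt targets outside the members moved in both directions. Of 27 tested, 5 rose and 4 fell, with a median of -0.02. These shares are 18.5% and 14.8%, against 11.2% and 10.6% over all genes. Either TET1 siRNA replicate 2 or control siRNA replicate 2 left out gave 3 higher. BMP4, a secreted ligand of the BMP pathway, fell most, from 809.8 and 925.1 to 363.2 and 330.4 (log2 difference -1.28, SE 0.094, adjusted p = 6.94e-06). The Rac activator gene TIAM1 fell by 0.49 (adjusted p = 0.00178), and its second probe set fell too. PHLDA1 fell by 0.42 (adjusted p = 0.0034), and 3 of its 6 probe sets fell while the others were near 0. The urokinase receptor gene PLAUR fell by 0.30 (adjusted p = 0.0312; 0.167, 0.0537 and 0.181 without control siRNA replicate 1, TET1 siRNA replicate 1 and TET1 siRNA replicate 2, and 0.0906 after median centring).

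The rises included a cell cycle gene and a Wnt inhibitor. CCND1, which encodes cyclin D1, read 688.6 and 689.2 under control siRNA and 961.5 and 1010 under TET1 siRNA (log2 difference 0.51, adjusted p = 6.71e-04). A second CCND1 probe set did not pass (0.37, limma adjusted p = 0.0574). DKK1, a secreted antagonist that binds LRP coreceptors, read 4822 and 4794 against 6596 and 6487 (log2 difference 0.44, adjusted p = 2.57e-04). JUN, an AP-1 subunit, rose by 0.60 (adjusted p = 4.35e-04). Of its 4 probe sets 2 rose, and 201466_s_at read 69.3 and 68.2 against 185.1 and 199.2 (log2 difference 1.30, adjusted p = 1.23e-04). The others did not pass, and read from its probe set of neither the _x_at nor the _s_at type JUN was at -0.05 (adjusted p = 0.905). ID2 rose by 0.31 (adjusted p = 0.0106), but a second ID2 probe set did not pass (0.42, limma adjusted p = 0.0792). The gene did not pass without control siRNA replicate 2 (0.25) or TET1 siRNA replicate 2 (0.24). The AP-1 subunit gene FOSL1, also chosen with its value known, rose by 0.27 (adjusted p = 0.0375), and did not pass with any 1 array left out (adjusted p 0.0795 to 0.182).

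**Figure D5:**
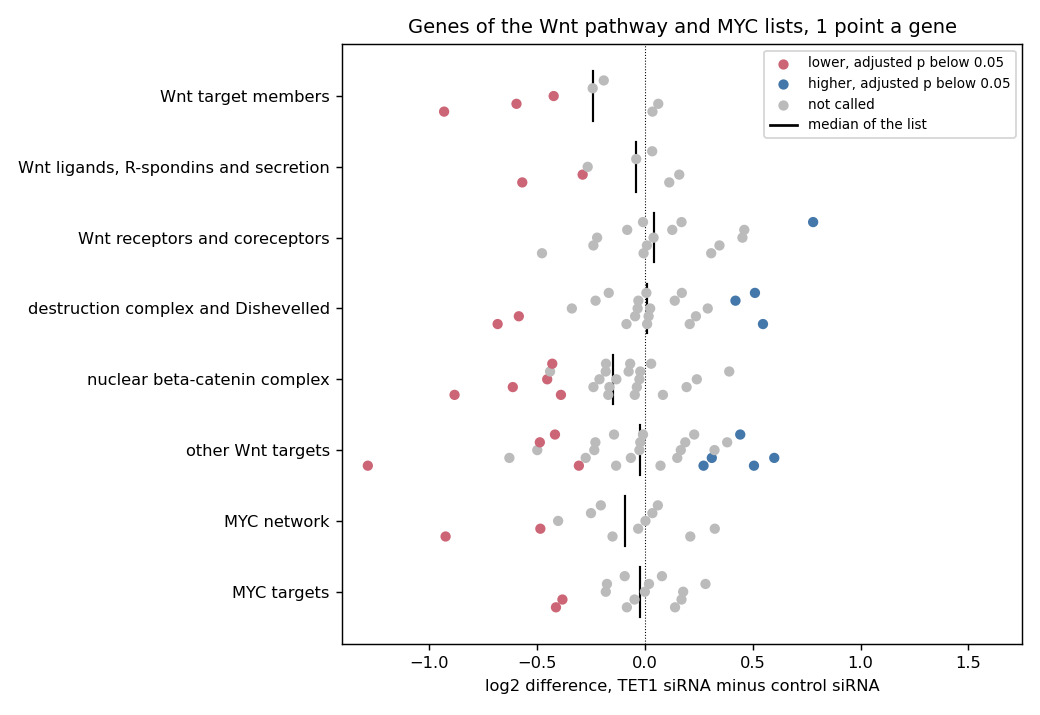
Log2 difference of each tested gene of the Wnt target members, 5 other Wnt pathway lists and 2 MYC lists (red, lower; blue, higher; grey, not called; black bar, list median). The members, the Wnt ligand list, the nuclear beta-catenin complex and the 2 MYC lists have no blue point. The medians of the members and the nuclear beta-catenin complex are -0.24 and -0.15.

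Partners and targets of MYC were read as 2 lists. The share that fell was 16.7% in the MYC network and 14.3% in the MYC targets, against 10.6% over all genes. Over all genes 11.2% rose. With so few genes 1 call moves these shares widely. Of 12 tested genes of the MYC network 2 fell and none rose (median -0.09). MYCL, a MYC paralogue, read 105.1 and 105.1 under control siRNA and 38.7 and 58.7 under TET1 siRNA (log2 difference -0.92, adjusted p = 0.00357). A dimmer MYCL probe set did not pass (-0.38, limma adjusted p = 0.515). MXI1, which competes with MYC for the partner MAX, fell by 0.48 (adjusted p = 0.00182). Of 14 tested MYC targets 2 fell and none rose (1 was higher without control siRNA replicate 1), with a median of -0.02: ODC1, the rate-limiting enzyme of polyamine synthesis (-0.41, adjusted p = 0.00364), and the nucleolar methyltransferase gene FBL (-0.38, adjusted p = 0.00135). Over all 7 lists 9 genes were higher and 17 lower, in all 21.7% of the 120 tested, beside 21.8% of all genes. Without the variance trend 4 were higher and 6 lower.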

How the data were processed

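RNA of HCT116 cells given control siRNA (2 arrays) or TET1 siRNA (2 arrays) was read on 1-colour Affymetrix arrays from oligo(dT)-primed cDNA, per the labels' protocols. Each deposited value is the intensity of a probe set, not log-transformed. The authors had scaled it array by array, since every array has a trimmed mean of 100.01 (2% cut at either end). No source used here names the software or background step. Global scaling hides a change in total mRNA.

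Control probe sets (62) were left out, and the rest were used as log2(signal + 16). Features with a mean log2 value above the median of all probe sets (4.86) were tested with limma 3.58.1 in R 4.3.3 (lmFit, eBayes with trend, two-sided, Benjamini-Hochberg over all features tested, threshold 0.05), once with 1 probe set a gene (highest mean log2 signal, 12389 of 19775 genes) and once with every probe set (27306). Prior degrees of freedom were 9.38 and 8.73, beside 2 residual ones. Gene symbols came from the platform annotation, updated by gene identifier with the RefSeq table. Adjusted p-values of a gene are from the first fit and those of a single probe set from the second. The code was tested on simulated data with known changes.

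The members and gene lists were chosen with earlier results of these data known. Named were all members, TET1, 9 core Wnt genes and, of each other list, up to 4 rises and 4 falls past the threshold by size. Alternatives covered normalization, centring, pseudocount, variance model, the replicate block, filter, choice of probe set and leaving out each array. Figures were drawn with matplotlib 3.10.9.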

Additional observations from a re-analysis of the deposited data

How the results depend on the processing

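Of the 3 member genes called lower, RNF43 and ETS2 kept direction and threshold in every alternative except limma without moderation, where no member gene passed (0 of all genes higher and 0 lower, 0 probe sets higher and 1 lower, 0 member probe sets; TET1 -1.28, adjusted p = 0.0999). CD44 was also lost without a variance trend and when all probe sets of a gene were averaged. Without a variance trend 437 genes were higher and 535 lower, 298 probe sets higher and 541 lower, 1 member probe set lower, and 4 and 6 pathway list genes higher and lower (9 and 17 as reported); without moderation they were 0 and 0. With no filter 899 genes and 1098 probe sets were higher, 847 and 1204 lower. Averaging all probe sets, 772 genes were higher. Without _x_at and _s_at probe sets 882 genes and 1104 probe sets were higher, 1248 probe sets and 11 pathway list genes lower. Fewer features were tested there; the cause of the other shifts was not tested.

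With 1 array left out, 813 to 1157 genes were higher, 879 to 983 were lower, 1257 to 1646 probe sets higher and 1421 to 1630 lower, and 3 to 4 member genes and 2 to 5 member probe sets lower (2 without control siRNA replicate 2) and 7 to 10 and 13 to 14 pathway list genes higher and lower. The array then alone in its group is taken to vary like the other 2. With TET1 siRNA replicate 1 or 2 left out, 813 or 835 genes and 1257 or 1275 probe sets were higher, and with control siRNA replicate 2 left out 1421 probe sets were lower. Log2 differences that changed sign, none of them called as reported except APC, JUN and COL1A1, were these. With quantile normalization GSK3B was at -0.00585 and SOX4 213665_at at 0.0032. With median centring CD44 209835_x_at was at 0.0309 and PHLDA1 225842_at at 0.00729. Averaging all probe sets, SOX4 was at -0.19, CTNNB1 at -0.25, GSK3B at -0.14, LGR4 at -0.15 and COL1A1 at -0.073. Without _x_at and _s_at probe sets APC was at -0.24 and JUN at -0.047. With 1 array left out the ranges were CD44 209835_x_at -0.071 to 0.062, SOX4 213665_at -0.23 to 0.13, CD44 229221_at -0.24 to 0.31, APC 215310_at -0.59 to 0.11, APC 216933_x_at -0.017 to 0.25, PHLDA1 217999_s_at -0.11 to 0.0083, TCF7L2 236094_at -0.21 to 0.26, ZNRF3 -0.52 to 0.042, CTNNB1 -0.11 to 0.17, GSK3B -0.0798 to 0.12, LGR4 -0.041 to 0.12, SOX4 213668_s_at -0.14 to 0.062, CD44 216056_at -0.41 to 0.24, MYC -0.021 to 0.15, SOX4 -0.038 to 0.11, LRP6 -0.013 to 0.27, CD44 204490_s_at -0.15 to 0.042, CD44 212014_x_at -0.19 to 0.013, CD44 217523_at -0.0054 to 0.21 and PHLDA1 225842_at -0.075 to 0.019.

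The replicate number as a block (replicate block) gave 1442 genes higher and 1348 lower, and again 3 member genes lower. The SOX4 probe set 1567906_at was at adjusted p = 0.05 there and not called. Same-numbered arrays did not deviate together (r = 0.0058 across genes, which are not independent). With 2 arrays a group this cannot show whether they shared a transfection or a batch, and the sample titles give only the replicate number. TET1 lay below the upper-quartile filter, so that value was not run. The number of arrays limits precision; dim probe sets are limited by background.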
